A study of Homo sapiens with 5 samples.

Results

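The S100 calcium-binding proteins were followed here through 10 genes, S100A2, S100A4, S100A6, S100A8, S100A9, S100A10, S100A11, S100A14, S100A16 and S100P, which were chosen by symbol. In the deposited table of 37181 genes and assembled loci, 9 of the 10 symbols have an entry, and a symbol with more than one entry was read from the entry with the largest mean over the 5 libraries. S100A8 was not analysed here. RNA-sequencing was compared between HCC827/GR cells (3 libraries, replicates 1, 2 and 3) and parental HCC827 cells (2 libraries, replicates 2 and 3). HCC827 is a human lung adenocarcinoma cell line with a deletion in exon 19 of EGFR, which makes it sensitive to the EGFR inhibitor gefitinib, and both groups carry this genotype. HCC827/GR is the gefitinib-resistant line raised from it by stepwise increases of the drug over more than 6 months. The resistant cells were a single derived line, and no source used here says that the libraries came from separate cultures, so the p-values measure only the spread between these libraries. Expression is given as FPKM, that is fragments scaled to transcript length and to the mapped fragments of the library. Levels may be compared only approximately between genes and between libraries, since FPKM need not sum to the same total in each library. FPKM carries no number of reads, and the depth behind each value is unknown.

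S100 proteins are small proteins that bind calcium through paired EF-hand helix-loop-helix motifs and mostly work as dimers. Calcium opens a surface on the dimer that docks partner proteins, among them annexins, cytoskeletal motors and p53, and some members are also released from cells and engage receptors such as RAGE (AGER) and TLR4. Most of the genes lie in one cluster on the long arm of chromosome 1 (the letter A in their names marks this cluster), next to the genes of the epidermal cornified envelope, whereas S100P lies on chromosome 4. In such bulk libraries, fewer cells that express a gene and less RNA per cell cannot be told apart. In lung adenocarcinoma several members are studied as epithelial, invasion-related or inflammatory genes.

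The sequences just before one RefSeq start of 3 of the genes are shown because they belong to the member that fell (S100A14), to its adjacent gene (S100A16), and to the member with the next lowest p (S100A2). They are the RefSeq promoter stretches on GRCh38.p14, 5′ to 3′ on the minus strand, without the bases that lie in an annotated exon. The S100A14 and S100A2 stretches lie inside the annotated range of their genes, since other transcripts in GENCODE begin further upstream. All 10 genes had an entry in the promoter table. The S100A14 stretch is chr1:153616356-153616575, the S100A16 stretch chr1:153613146-153613387 and the S100A2 stretch chr1:153565866-153566094, and capitals mark the only match to either motif searched.
S100A14: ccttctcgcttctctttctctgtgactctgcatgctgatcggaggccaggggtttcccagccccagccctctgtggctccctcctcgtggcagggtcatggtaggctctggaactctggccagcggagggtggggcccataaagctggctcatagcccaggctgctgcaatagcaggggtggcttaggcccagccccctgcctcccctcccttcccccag
S100A16: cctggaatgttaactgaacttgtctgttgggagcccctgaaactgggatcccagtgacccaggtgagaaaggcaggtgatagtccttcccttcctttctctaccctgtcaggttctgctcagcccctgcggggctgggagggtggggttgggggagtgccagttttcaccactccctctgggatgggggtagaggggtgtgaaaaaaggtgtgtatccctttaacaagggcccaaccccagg
S100A2: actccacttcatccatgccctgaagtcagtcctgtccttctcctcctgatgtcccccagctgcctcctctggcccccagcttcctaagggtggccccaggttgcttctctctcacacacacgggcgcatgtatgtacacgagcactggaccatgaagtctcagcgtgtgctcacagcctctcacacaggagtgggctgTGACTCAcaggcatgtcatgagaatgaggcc
The capitals in S100A2 are a match to TGANTCA, the core to which AP-1 transcription factors bind, 52 bases before the RefSeq start. TGANTCA was searched on both strands of the 250 bases before each start, and S100A2 was the only member with a match, whereas 6.60% of 27305 promoters of the same length held one. The C/EBP letters TTGCNNAA, searched in the same way, were found only before the start of S100A11 among the members, 33 bases before its start, and in 9.13% of all promoters. These matches describe the letters only.

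Among the members, the only one that fell was S100A14, and none rose. S100A14 encodes an atypical S100 protein with a weakened calcium site that is found mainly in epithelia. Its gene lies at chr1:153614255-153616986 on GRCh38 (GENCODE release 29, minus strand, up to 5 exons in one transcript, protein-coding). Its expression was 4.41 and 3.28 FPKM in HCC827 replicates 2 and 3, was listed at 0 in HCC827/GR replicate 1, and was 0.00746 and 0.0241 FPKM in HCC827/GR replicates 2 and 3. The parental libraries were both high and the resistant libraries all near 0, so that the groups did not overlap. The difference was -2.25 on the log2(FPKM + 1) scale (standard error 0.15, 95% interval from -2.64 to -1.86), with an adjusted p of 0.00443 from limma with Benjamini-Hochberg adjustment over the 16189 entries tested. By size of the fall it ranked 93 among these entries, and by p it ranked 112. The added 1 FPKM holds this difference and its standard error down. With 0.1 FPKM added in its place the difference was -5.15 (standard error 0.45, adjusted p = 0.00948 from limma).

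In the same comparison 5.71% of all entries tested were lower and 5.26% higher at an adjusted p under 0.05, and among the 7 members tested 1 was lower and 0 were higher. At an unadjusted p under 0.05 from limma the members called were S100A14 (lower) and S100A2 (higher), against 13.8% of all entries lower and 13.4% higher. The study joined a 2-fold change to an unadjusted p under 0.05, with Ballgown. Applied here to the limma p and to the difference in log2(FPKM + 1), these thresholds called S100A14 alone among the members. They called 3.97% of all entries lower and 2.96% higher. Libraries of the groups did not overlap for 3 members that were higher and 1 that was lower, against 22.8% and 23.4% of all entries. With 7 members, counts of this size lay near the background. S100A14 reached the required mean of 0.5 FPKM only through the parental libraries, and without this filter its adjusted p from limma was 0.0189. Its adjusted p from limma stayed between 0.0255 and 0.0345 when any 1 library was left out. The model of Ballgown, fitted with a library-size term and without moderation of the variances, gave -2.26 with an adjusted p of 0.178. That model called 0 members, and called 9 entries lower and 6 higher in all.

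**Figure D1:**
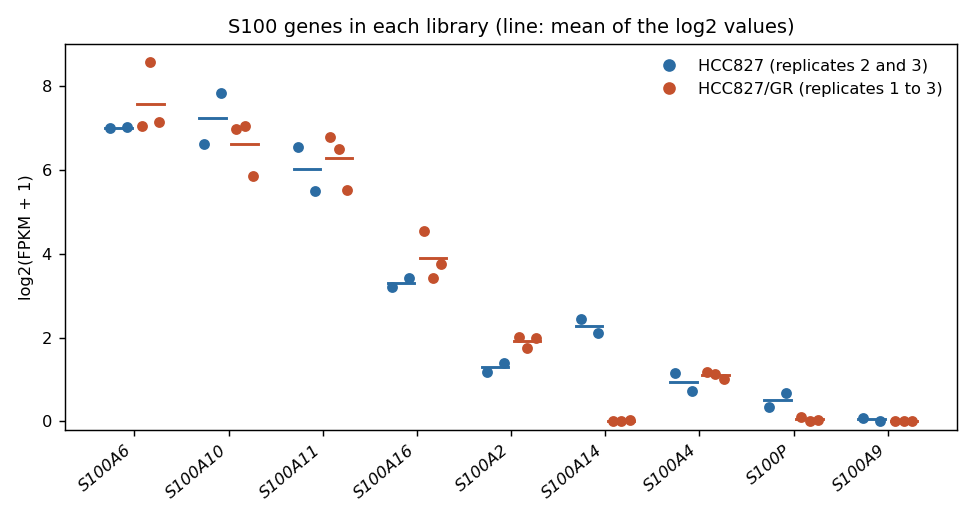
Expression of the 9 S100 genes with an entry, as log2(FPKM + 1), with 1 point per library and a line at the mean of each group (blue, 2 HCC827 libraries; red, 3 HCC827/GR libraries). S100A6, S100A10 and S100A11 lie far above the rest in every library, and S100A14 drops from 4.41 and 3.28 FPKM to at most 0.0241 FPKM.

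S100A16 lies 1109 bases from S100A14 on the same strand, at chr1:153606886-153613145, and encodes a widely expressed member of the family. Its difference had the opposite sign to that of its neighbour and did not pass the test. S100A16 had 8.19 and 9.69 FPKM in the HCC827 libraries and 22.1, 9.76 and 12.6 FPKM in the HCC827/GR libraries. Every resistant library lay above every parental one, but HCC827/GR replicate 2 exceeded HCC827 replicate 3 only by a margin far smaller than the spread of the resistant libraries. The difference was 0.60 (standard error 0.35, 95% interval from -0.31 to 1.50, adjusted p = 0.349 from limma), and without HCC827/GR replicate 1 it was 0.28 (adjusted p = 0.433 from limma). The gap between the genes, log2(FPKM + 1) of S100A14 minus that of S100A16, was -1.04 ± 0.394 (SD, n = 2) in HCC827 and -3.89 ± 0.574 (SD, n = 3) in HCC827/GR cells (p = 0.1 in an exact permutation test on both sides, which is the lowest p that 3 libraries against 2 can reach). Both genes were already free of overlap in opposite directions, so the groups had to separate in this gap. The p therefore adds nothing to the values of the single genes.

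S100A2, at chr1:153561108-153567890, encodes a nuclear S100 protein of basal epithelial cells that binds p53. It had 1.26 and 1.64 FPKM in the HCC827 libraries and 3.06, 2.34 and 2.98 FPKM in the HCC827/GR libraries. The resistant libraries were all above the parental ones, with means of 2.80 ± 0.396 (SD, n = 3) and 1.45 ± 0.271 FPKM (SD, n = 2). The difference of 0.63 (standard error 0.14, 95% interval from 0.26 to 1.00) had an unadjusted p of 0.00744 and an adjusted p of 0.0595 from limma, so it did not pass the test. When the protein-coding entries alone were tested after rescaling to equal totals, the adjusted p was 0.0461. Over all the alternatives the adjusted p ran from 0.0461 to 0.374, and the difference was positive in each.

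S100A4, at chr1:153543613-153550136, encodes metastasin, which binds non-muscle myosin heavy chain and serves as a marker of fibroblasts and mesenchymal cells. It was low in both groups, with 1.21 and 0.663 FPKM in the HCC827 libraries and 1.26, 1.20 and 1.03 FPKM in the HCC827/GR libraries. The groups overlapped. The difference was 0.17 (standard error 0.17, 95% interval from -0.26 to 0.60, adjusted p = 0.568 from limma). At levels this low the added 1 FPKM shrinks differences, and with 0.1 FPKM added in its place the difference was 0.33 (standard error 0.30). The annotated range of S100A4 overlaps that of S100A3 on the same strand, so the division of reads between these entries is uncertain.

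**Figure D2:**
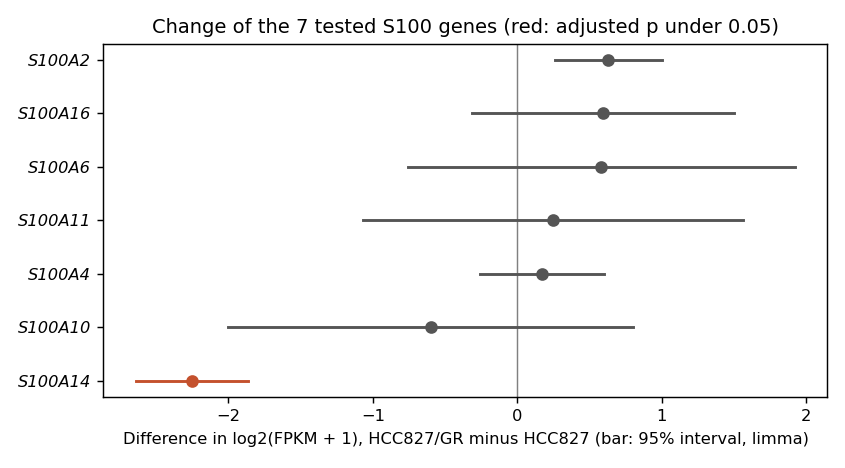
Difference in log2(FPKM + 1) between HCC827/GR and HCC827 for the 7 S100 genes tested, with 95% intervals from limma. S100A14 at -2.25 is the only one with an adjusted p under 0.05, and the intervals of S100A6, S100A10 and S100A11 are the widest.

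S100A6, S100A10 and S100A11 carried between 93.2% and 97.8% of the summed FPKM of the members in each library. S100A6 encodes calcyclin, a partner of the calcyclin-binding protein CACYBP, and lies at chr1:153534599-153536244. It had 126.0 and 127.9 FPKM in the HCC827 libraries and 129.9, 379.8 and 139.6 FPKM in the HCC827/GR libraries. All resistant libraries lay above the parental ones, but HCC827/GR replicate 2 stood far above the other four libraries. The difference of 0.58 (standard error 0.51, 95% interval from -0.76 to 1.92, adjusted p = 0.534 from limma) became 0.084 (adjusted p = 0.702 from limma) without HCC827/GR replicate 2.

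S100A10 encodes p11, a member that no longer binds calcium and forms a complex with annexin A2 at the plasma membrane. Its gene lies at chr1:151982915-151994390. It had 97.3 and 226.3 FPKM in the HCC827 libraries and 124.0, 131.9 and 56.8 FPKM in the HCC827/GR libraries. The parental libraries bracketed 2 of the 3 resistant ones. The difference was -0.60 (standard error 0.54, 95% interval from -2.001 to 0.80, adjusted p = 0.540 from limma), and without HCC827 replicate 3 it was 0.00527 (adjusted p = 0.996 from limma). Its partner ANXA2 had 65.3 ± 6.11 FPKM (SD, n = 2) in HCC827 and 66.9 ± 5.28 FPKM (SD, n = 3) in HCC827/GR cells. The ratio of S100A10 to ANXA2 ran from 0.820 in HCC827/GR replicate 3 to 3.25 in HCC827 replicate 3 (difference of the group means, exact permutation test, two-sided, p = 0.5).

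S100A11 encodes a partner of annexin A1 and lies at chr1:152032506-152047907. Its level was 93.0 and 44.0 FPKM in the parental libraries, against 109.3, 89.5 and 45.1 FPKM in the resistant ones. The lowest value of each group came from its replicate 3, and the groups overlapped almost entirely. The difference was 0.25 (standard error 0.51, 95% interval from -1.07 to 1.57, adjusted p = 0.807 from limma). GENCODE lists 2 pseudogenes named after S100A11, with which its reads could have been shared. The intervals of S100A6, S100A10 and S100A11 all hold 0 and reach beyond a difference of 1 in at least one direction, so a p over the threshold does not show that these levels were equal.

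The wide intervals go with a wide spread between libraries of the same cells. The residual SD of log2(FPKM + 1) within groups was 0.703 for S100A6, 0.737 for S100A10 and 0.692 for S100A11, against a median of 0.150 over the 310 protein-coding entries that averaged 50 FPKM or more. Among these entries, 95.2%, 95.5% and 94.5% had a smaller residual SD than S100A6, S100A10 and S100A11. Among the 58 of them whose longest annotated transcript has at most 1300 bases, the median was 0.162. S100A14, S100A2 and S100A4 had residual SDs of 0.139, 0.157 and 0.180, close to the median of 0.178 over all entries tested. The added 1 FPKM shrinks the spread at low levels, as for S100A14, whose resistant libraries were near 0. The highest values fell in different libraries, since S100A6 was highest in HCC827/GR replicate 2, S100A10 in HCC827 replicate 3 and S100A11 in HCC827/GR replicate 1.

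**Figure D3:**
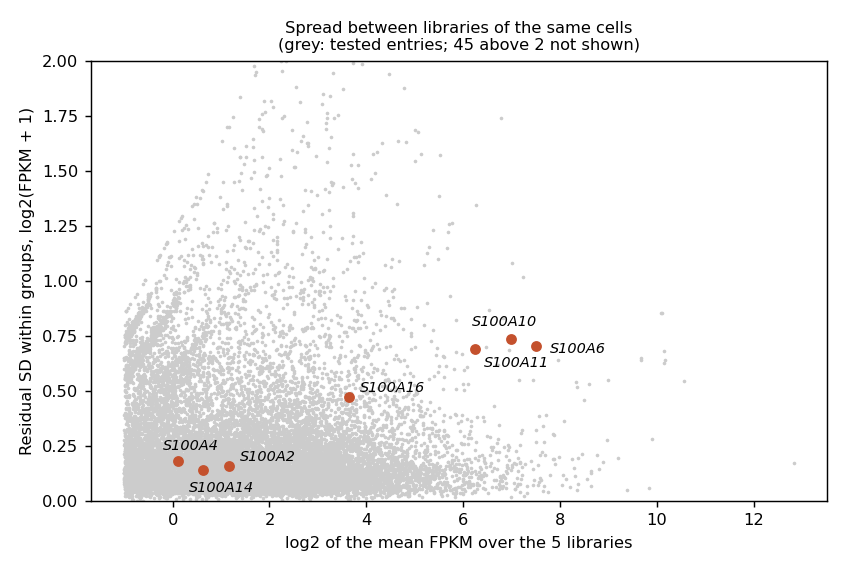
Residual SD of log2(FPKM + 1) within groups against the log2 of the mean FPKM over the 5 libraries, with the tested entries in grey (those above 2 lie outside the plot) and the 7 tested S100 genes in red. S100A6, S100A10 and S100A11, at 0.703, 0.737 and 0.692, lie well above the bulk of entries with similar levels.

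S100P and S100A9 stayed below a mean of 0.5 FPKM and were not tested. S100P, a member first found in placenta that binds ezrin and RAGE, lies at chr4:6693069-6697170. It had 0.262 and 0.608 FPKM in the HCC827 libraries, 0.0757 and 0.0241 FPKM in HCC827/GR replicates 1 and 3, and was listed at 0 in HCC827/GR replicate 2. The parental libraries were all above the resistant ones, as in 14.8% of the 19822 entries below the filter with a value above 0 (8.74% were higher). With no filter, the difference was -0.46 with an adjusted p of 0.140 from limma, and with 0.1 FPKM added in place of 1 it was -1.97 with an adjusted p of 0.119. S100A9, at chr1:153357854-153361027, encodes a subunit of calprotectin, the abundant S100 complex of neutrophils and monocytes. It was 0.0646 FPKM in HCC827 replicate 2 and listed at 0 in the other four libraries.

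The order of the members by mean level was S100A10, S100A6, S100A11, S100A16, S100A14, S100A2, S100A4, S100P and S100A9 in HCC827 cells. In this order only the libraries of S100A10 and S100A6 overlapped. Even so, S100A10 and S100A11, S100A2 and S100A4, and S100A4 and S100P were separated by less than the spread of either gene. In HCC827/GR cells S100A6 came first and S100A10 next, and S100A14 stood in the eighth place instead of the fifth, below S100P. There the libraries of S100A6 overlapped those of S100A10, those of S100A10 overlapped those of S100A11, and those of S100P, S100A14 and S100A9 overlapped near 0. The summed FPKM of the 9 members was 331.7 and 414.1 in the HCC827 libraries and 389.7, 614.5 and 258.1 in the HCC827/GR libraries (exact permutation test, two-sided, p = 0.9). Their median difference was 0.25 over the 7 tested, against 0.0014 over all entries.

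Of the 11 other S100 genes, 5 had an entry and only S100A3 reached the mean of 0.5 FPKM. S100A3, a cysteine-rich member of the hair cuticle, had 1.41 and 1.82 FPKM in the HCC827 libraries and 11.5, 3.13 and 9.23 FPKM in the HCC827/GR libraries. The resistant libraries were all above the parental ones but spread widely, and the difference of 1.63 (standard error 0.51) had an unadjusted p of 0.0261 and an adjusted p of 0.127 from limma. S100A5 went the other way below the filter, from 0.611 and 0.306 FPKM to at most 0.103 FPKM. Transcripts of S100A13 were found only in an entry that also holds a non-coding gene, AL162258.1, and this joint entry had 6.17 ± 0.388 FPKM (SD, n = 2) in HCC827 and 4.99 ± 1.34 FPKM (SD, n = 3) in HCC827/GR cells (adjusted p = 0.465 from limma).

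Along chromosome 1, the genes from S100A10 to S100A1 span chr1:151982915-153632039 on GRCh38. No other protein-coding gene in this span had an entry of its own that reached the mean of 0.5 FPKM, and of the 8 S100 genes tested there 1 was lower. The joint entry of S100A13 and AL162258.1 lies after S100A14 and reaches past the end of the span, with a difference of -0.28. The 10 nearest tested protein-coding genes on either side had median differences of 0.026 before it and 0.035 after it on the log2 scale. One of these 20 was lower, CGN, the gene of the tight junction protein cingulin, at -2.24 (adjusted p = 0.00444 from limma). One was higher, RAB13, the gene of a small GTPase of junctional trafficking, at 1.10 (adjusted p = 0.0463 from limma). S100A14 lay between S100A16, at 0.60, and this joint entry, followed by CHTOP, at -0.046, none of which passed the test.

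**Figure D4:**
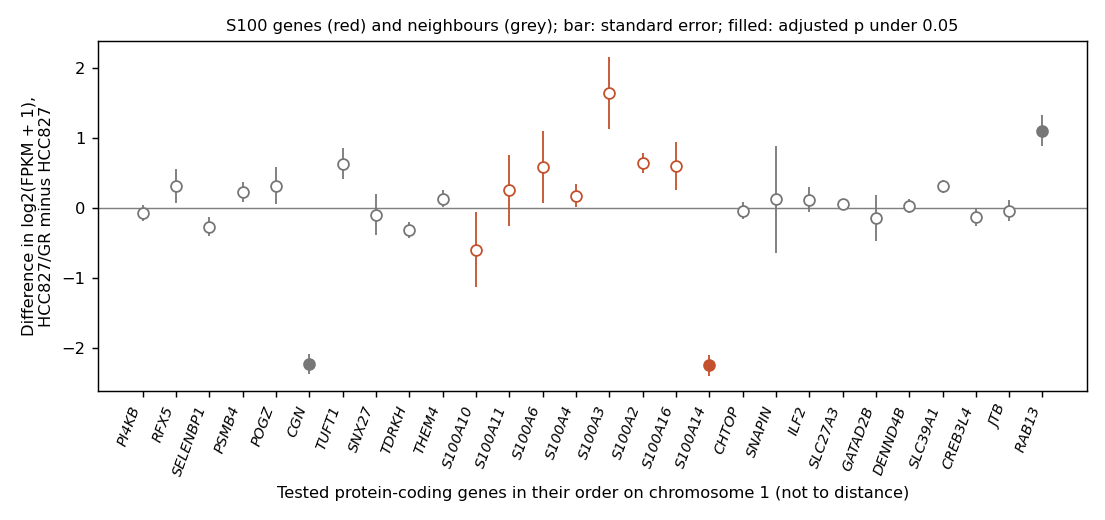
Difference in log2(FPKM + 1) between HCC827/GR and HCC827 for the 8 tested S100 genes (red) and the 20 nearest tested protein-coding genes (grey) in their order along chromosome 1, with standard errors. The filled points, CGN, S100A14 and RAB13, had an adjusted p under 0.05 and are not next to each other, and the joint entry of S100A13 is not drawn.

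The genes whose profile over the 5 libraries was most like that of S100A14, by Euclidean distance of the centred log2(FPKM + 1) values among 10644 protein-coding genes, were PCDH1, CGN and B4GALNT3, at distances of 0.0449, 0.0667 and 0.148. PCDH1 encodes a protocadherin of airway epithelium, and fell from 4.77 and 3.38 FPKM in the HCC827 libraries to between 0.0560 and 0.0800 FPKM in the HCC827/GR libraries. CGN had 14.4 and 10.6 FPKM in the HCC827 libraries and 1.83, 1.76 and 1.90 FPKM in the HCC827/GR libraries. B4GALNT3, an N-acetylgalactosaminyltransferase gene, fell by 2.21 on the log2 scale. The likeness rests on the step between the groups and on HCC827 replicate 2 lying above replicate 3. It also depends on the added 1 FPKM, which holds down the fall of genes that end near 0. In the HCC827/GR libraries S100A14 was at most 0.0241 FPKM, whereas CGN kept at least 1.76 FPKM.

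S100 proteins act through partners and receptors, and of 23 such genes 22 had an entry and 19 were tested. In this list 3 rose, 0 fell and 16 did not pass the test by limma, at an unadjusted p under 0.05 as well as after adjustment, with a median of 0.036. Over all entries 5.26% were higher and 5.71% lower after adjustment, but the list was chosen with earlier results of these data known. ANXA6, an annexin of the inner plasma membrane that binds several S100 proteins, rose from 0.724 and 1.03 FPKM to 8.67, 8.54 and 7.94 FPKM, a difference of 2.33 (standard error 0.11, adjusted p = 0.00234 from limma). MCAM, a cell adhesion molecule that has been described as a receptor for the S100A8 and S100A9 complex, rose from 11.2 ± 1.45 FPKM (SD, n = 2) to 47.9 ± 3.24 FPKM (SD, n = 3), a difference of 2.01 (adjusted p = 0.00349 from limma). MYH9, the non-muscle myosin heavy chain bound by S100A4, rose from 57.0 ± 4.70 FPKM (SD, n = 2) to 143.5 ± 7.54 FPKM (SD, n = 3), a difference of 1.32 (adjusted p = 0.00630 from limma). S100A4 itself differed by 0.17 over the same libraries.

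Of the partners of the abundant members, ANXA1, ANXA2, AHNAK and CACYBP did not pass the test. ANXA1, a partner of S100A11, had 157.7 ± 2.61 FPKM (SD, n = 2) in HCC827 and 185.6 ± 11.2 FPKM (SD, n = 3) in HCC827/GR cells, a difference of 0.23 (95% interval from -0.03 to 0.49, adjusted p = 0.227 from limma). For ANXA2 the difference was 0.036 (95% interval from -0.28 to 0.35, adjusted p = 0.884). AHNAK, a giant scaffold protein held by the complex of S100A10 and annexin A2, varied more widely than S100A10, with 10.5 and 80.4 FPKM in the HCC827 libraries and 80.6, 45.5 and 12.8 FPKM in the HCC827/GR libraries. CACYBP had 19.5 ± 2.67 FPKM (SD, n = 2) in HCC827 and 15.1 ± 4.99 FPKM (SD, n = 3) in HCC827/GR cells (adjusted p = 0.491 from limma). Of the receptors, AGER was near 1 FPKM, with 1.06 and 0.977 FPKM in HCC827 and 0.656, 0.728 and 0.702 FPKM in HCC827/GR cells (adjusted p = 0.249 from limma), and TLR4 did not exceed 0.0287 FPKM in any library.

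**Figure D5:**
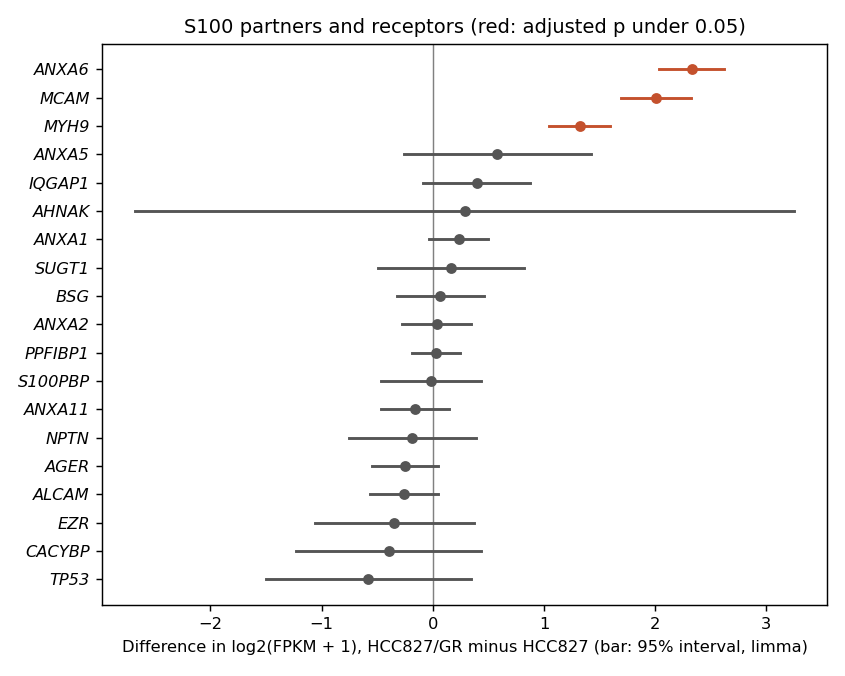
Difference in log2(FPKM + 1) between HCC827/GR and HCC827 for the 19 tested partners and receptors of S100 proteins, with 95% intervals from limma. ANXA6 at 2.33, MCAM at 2.01 and MYH9 at 1.32 are the 3 with an adjusted p under 0.05, and AHNAK has the widest interval.

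Marker genes were read beside these values. Of 8 epithelial markers 7 had an entry, and 5 fell in HCC827/GR cells with a median of -1.52 over the 7, against 5.71% of all entries lower, among them EPCAM at -3.04, KRT19 at -1.52 and CDH1 at -1.93 (adjusted p = 0.00349, 0.00996 and 0.0125 from limma). Their summed level was 1146 and 1255 FPKM in the HCC827 libraries and between 482.8 and 614.6 FPKM in the resistant libraries, and its part in the difference of S100A14 was not tested. The entry of CLDN7, which is among the 5, joins several genes. Of 12 myeloid markers 10 had an entry. CD68, whose entry joins several genes, had 30.8 and 38.9 FPKM in HCC827 and 34.7, 32.9 and 38.2 FPKM in HCC827/GR cells. CD68 was left out of the myeloid sum, whereas the joined entry of CLDN7 was kept in the epithelial sum. TYROBP was listed at 0 throughout, PTPRC at most 0.0228 FPKM and MPO at most 0.0119 FPKM. The other myeloid markers summed to 3.42 and 3.26 FPKM in the HCC827 libraries and to between 1.07 and 1.96 FPKM in the HCC827/GR libraries. Most of this sum was ITGB2, with 2.45 and 2.30 FPKM in HCC827 and 0.988, 0.595 and 1.37 FPKM in HCC827/GR cells (adjusted p = 0.0739 from limma). CSF1R had 0.662 and 0.619 FPKM in HCC827 and between 0.248 and 0.311 FPKM in HCC827/GR cells. ITGAM went the other way, with 0.0263 and 0.0456 FPKM in HCC827 and between 0.107 and 0.270 FPKM in HCC827/GR cells. None of the 27 squamous and cornified envelope genes reached the mean of 0.5 FPKM, and the 18 with an entry summed to 2.86 and 4.20 FPKM in HCC827 and to between 1.72 and 2.89 FPKM in HCC827/GR cells. Of these, 9 did not overlap and were lower in HCC827/GR cells, whereas KRT17, FLG and HRNR were higher without overlap. Over the entries below the filter with a value above 0, the shares were 14.8% lower and 8.74% higher. KRT6C, listed at 0 in every library, is not among those entries. KRT6A, IVL and SPRR1B, which are among the 9, were listed at 0 in every HCC827/GR library.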

How the data were processed

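RNA-sequencing of 3 HCC827/GR and 2 HCC827 libraries was examined through the FPKM values the authors deposited, which they made with Cutadapt, FastQC, Bowtie2, TopHat2, StringTie and Ballgown. Versions are not given in the sources used here, the labels name hg18, and 1 FPKM column that matched no sample was left out. The labels describe a small-RNA, single-end library and the paper an rRNA-depleted, paired-end one. Strand handling is not given in the sources used here. Positions came from GENCODE release 29 (GRCh38), through 135164 of 135299 Ensembl transcript identifiers in the table.

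Values were taken as log2(FPKM + 1), and the 16189 entries that averaged 0.5 FPKM or more were compared by moderated linear models (R 4.3.3, limma 3.58.1, trended prior, both sides). The Benjamini-Hochberg adjustment ran over all of them, and "rose" or "fell" means an adjusted p under 0.05. Steps were tested on simulated data. All members were named, with the 3 genes of lowest p per direction in each other list, fixed partners, and the 3 closest profiles. Members and lists were chosen with earlier results of these data known. Genes beyond these rules (S100A3, S100A5, S100A13, CHTOP and the markers) were named after their values were seen. Alternatives were another pseudocount, filter, scaling or model, a block for the replicate number, summing entries that share a symbol, and leaving out each library. The ratio of mean FPKM, and no filter together with a pseudocount of 0.1, were added after seeing the data. The gap between S100A14 and S100A16 was not among the planned measures. Exact permutation tests used scipy 1.17.1, and tables and plots used pandas 2.3.3, numpy 2.4.6 and matplotlib 3.10.9 under Python 3.11.15.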

Additional observations from a re-analysis of the deposited data

How the results depend on the processing

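S100A14 was lower under every alternative, with an adjusted p under 0.05 in 14 of the 16 that give a p, and the values without it were -2.26 with Ballgown's model (adjusted p = 0.178) and -2.24 with the replicate number as a block (adjusted p = 0.130). Its value ran to -8.51 as a ratio of the mean FPKM. S100A2 passed the test only among rescaled protein-coding entries, which made the members higher 1 in place of 0. Ballgown's model called 6 entries higher and 9 lower, with 0 members lower and a member median of 0.52. The block called 0 entries in either direction, with 0 members lower and a median of 0.14, while S100A11 turned to -0.00965. In that fit HCC827/GR replicate 1 has no partner and adds nothing. Deviations of same-numbered libraries from their group means correlated at 0.033 for replicate 2 and 0.015 for replicate 3. With only replicates 2 and 3 in HCC827, the deviations of that group mirror each other. These values therefore cannot show whether libraries of the same number were handled together, and the labels do not say. With no filter 504 entries were higher in place of 851.

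With each library left out, 181 to 450 entries were higher and 248 to 434 lower, the member median ran from 0.00527 to 0.59, and the members called stayed at 0 higher and 1 lower. Without HCC827 replicate 3 the sign turned for S100A4, S100A10 and S100A11, and without HCC827/GR replicate 1 for S100A11 (-0.00965). Their ranges were -0.032 to 0.38 for S100A4, -1.20 to 0.00527 for S100A10 and -0.28 to 0.78 for S100A11. The difference in summed FPKM of 47.9 ran from -49.0, without HCC827/GR replicate 2, to 129.2, without HCC827/GR replicate 3. Depth is unknown, which limits what the values near 0 can show.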
